A study of Bos taurus with 6 samples.

Results

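Heart and skeletal muscle miRNAs were followed in FBS, the serum of unborn calves that is added to culture media. They were taken by name from the deposited miRNA tables, as every row named miR-1, miR-1a, miR-133a, miR-133b, miR-206, miR-208a, miR-208b, miR-499 or miR-499a, either arm. The rule found 8 of the 502 miRNAs listed when reads were mapped to the human genome and 8 of the 395 listed for the mouse genome. The human rows were hsa-miR-1-3p, hsa-miR-206, hsa-miR-133a-3p, hsa-miR-133a-5p, hsa-miR-133b, hsa-miR-208b-3p, hsa-miR-208a-3p and hsa-miR-499a-5p, written below without the prefix, and the mouse rows were their counterparts. The study compared 3 pellets with 3 supernatants, the EV-enriched and EV-depleted fractions left by UC of 40 mL FBS at 100000 g for 24 h. For the supernatant, 20 mL was concentrated on a 3 kDa filter, a step described for that fraction alone, and the labels name no treatment of the serum. Each library was made from 60 ng RNA treated with T4-PNK, with inserts of 15 to 65 nt. The study's main text names 3 batches of serum, while its figure legend names 3 aliquots. The spread between libraries of a fraction may thus include that between batches. The sources used here do not say which numbered library came from which batch.

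MiRNAs are short RNAs that guide Argonaute proteins to mRNAs, mainly through pairing of the seed at their 5′ end. MiR-1 and miR-206 share a seed and promote the differentiation of myoblasts in mouse cells, and miR-206 is largely restricted to skeletal muscle. MiR-133a and miR-133b are made from the same primary transcripts as the miR-1 and miR-206 genes, and in mouse muscle miR-133 restrains the serum response factor SRF. MiR-208a, miR-208b and miR-499 are encoded within myosin heavy chain genes and take part in the choice of myosin in mouse muscle. In the cattle assembly ARS-UCD2.0, used for names and neighbours alone, MIR1-1 neighbours MIR133A-1, MIR1-2 neighbours MIR133A-2 and MIR206 neighbours MIR133B among the miRNA genes. MIR208A lies within MYH6, the gene of the alpha myosin heavy chain of the heart, MIR208B within MYH7 of slow muscle and heart, and MIR499 within MYH7B. Genes and mature sequences were not compared between cattle, human and mouse.

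Levels are given in RPM, which scale each miRNA to the reads mapped in its library. A read was worth an estimated 0.150 RPM in the deepest library (pellet 1), 1.15 RPM in the shallowest (pellet 3) and 0.186 to 0.325 RPM in supernatants. These estimates correspond to 867426 to 6660802 mapped reads in the pellets and 3081111 to 5373233 in the supernatants. In pellet 3 a miRNA listed at 0 may have had up to 3.46 RPM, the value of 3 reads. Related members (miR-1 with miR-206, miR-133a with miR-133b, miR-208a with miR-208b) may take reads from each other, which leaves the level of each uncertain. Such sharing of reads was not tested. The study found miR-451a by qRT-PCR in medium with FBS, while its figure legend calls miR-451 not sequenced in these libraries. RPM of different miRNAs thus need not follow their amounts in serum. The orders and ratios of members below hold for RPM alone.

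MiR-1-3p, miR-206 and miR-208b-3p made up most of the muscle miRNA reads in all 6 libraries, and which of them led differed from pellet to pellet. The 8 members summed to 150.4, 178.6 and 173.5 RPM in pellets 1, 2 and 3, against 66.6, 50.1 and 63.1 RPM in supernatants 1, 2 and 3. In pellet 1 miR-206 held 38.4% of this sum and miR-1-3p 33.0%. In pellet 2 miR-1-3p held 83.5% and miR-208b-3p 2.86%. In pellet 3 miR-208b-3p held 52.4% and miR-1-3p 20.7%. So 3 pellets with similar sums were led by 3 different miRNAs. The supernatants were more alike, with miR-1-3p at 22.5% to 38.7%, miR-206 at 24.2% to 45.6% and miR-208b-3p at 27.03% to 32.1% of the sum. As shares of all listed miRNA reads the 8 members took 0.117%, 0.231% and 0.274% in pellets 1, 2 and 3, against 0.114%, 0.0910% and 0.121% in supernatants 1, 2 and 3. Pellet 1 lay below supernatant 3 on this scale, so the fractions overlapped. For the level of a muscle miRNA in serum, the number of cells that shed it and the RNA per cell cannot be told apart, and both fractions were spun from the same serum.

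**Figure D1:**
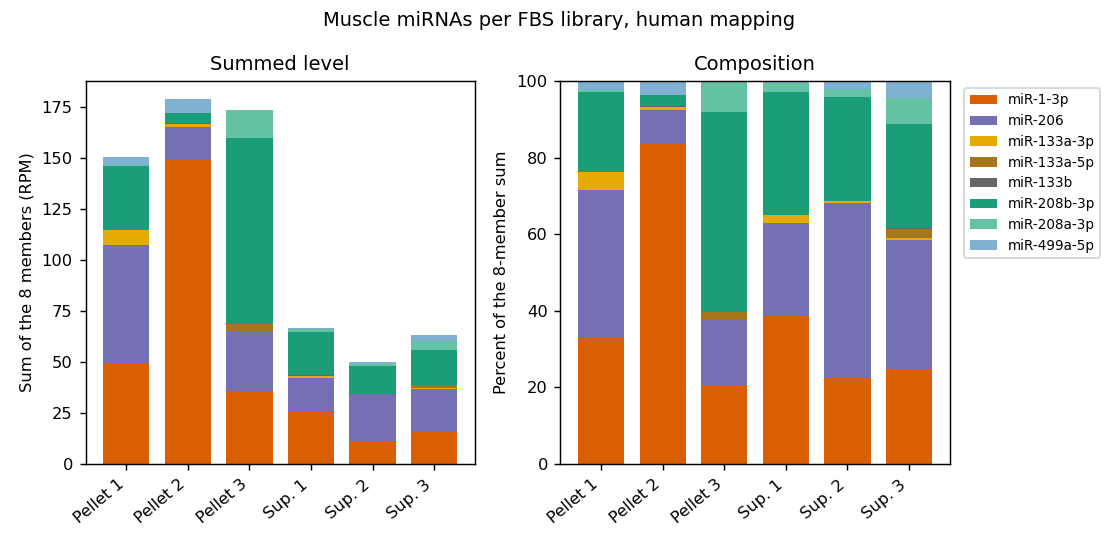
Stacked bars of the 8 muscle miRNAs in each library of the human mapping, as summed RPM on the left and as percent of that sum on the right. The sums ran from 150.4 to 178.6 RPM in the pellets and from 50.1 to 66.6 RPM in the supernatants, and the leading miRNA changed among the pellets.

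MiR-1-3p was the only member of the 6 tested in the human mapping that passed as different between the fractions, and it was higher in the pellets. It stood at 49.7, 149.1 and 35.9 RPM in pellets 1, 2 and 3, against 25.8, 11.3 and 15.7 RPM in supernatants 1, 2 and 3. Every pellet was above every supernatant, and pellet 2 was far above the other pellets. It averaged 78.2 ± 61.8 RPM in pellets and 17.6 ± 7.43 RPM in supernatants (SD, n = 3 per fraction), a ratio of 4.45. By limma on log2(RPM + 1), a scale that understates changes of low values, the log2 fold change was 1.89 (standard error 0.65, adjusted p = 0.0451, Benjamini-Hochberg over 153 miRNAs). The two-sided exact permutation test gave p = 0.10, the smallest it can give with 3 libraries against 3. Of all 153 tested miRNAs 47.7% were called higher in the pellets (73) and 0 were called lower (0 also at an unadjusted p under 0.05), and 66.7% did not overlap between the fractions. With a median log2 fold change of 2.05 over those miRNAs, miR-1-3p lay at the 43.8th percentile.

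The call on miR-1-3p, like the number of calls over all miRNAs, changed with the scaling and with the libraries used. It was lost when values were scaled to the listed miRNA reads (log2 fold change 1.28, adjusted p = 0.145 by limma) and turned in sign with median-of-ratios scaling (-0.086, adjusted p = 0.911). With these scalings 38 (37 of them higher in the pellets) and 6 (1 of them higher) of the 153 miRNAs passed, and the median log2 fold change over all of them moved to 1.47 and 0.39. Without pellet 2 the mean of the pellets was 42.8 RPM, the ratio of means fell to 2.43 and the call was lost (log2 fold change 1.29, adjusted p = 0.0867). It was also lost without supernatant 1, 2 or 3 (log2 fold change 2.19, 1.63 and 1.85, adjusted p = 0.0878, 0.154 and 0.120), with a pseudocount of 10 RPM (0.0684) and without the filter on low values (0.182). Of all 153 tested miRNAs 60 passed without pellet 2, and 0, 0 and 31 without supernatant 1, 2 or 3. With that pseudocount 38 passed, and without the filter 11 of 502. Over all alternatives the adjusted p by limma ran from 0.0161 to 0.911. As a share of listed miRNA reads, miR-1-3p took 0.0960% ± 0.0843 in pellets and 0.0315% ± 0.0119 in supernatants (SD, n = 3 per fraction, exact permutation p = 0.20), and the fractions overlapped. Most listed miRNA reads were miR-122-5p in every library. It stood at 92838 of 128969 RPM in pellet 1 and 40793 of 58472 RPM in supernatant 1. Shares of listed miRNA reads, and the scaling to them, thus have mostly miR-122-5p as their denominator.

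Pellet 2, where miR-1-3p was highest, also had the highest sums of the red blood cell markers and of the platelet and leukocyte markers. The red blood cell markers miR-486, miR-451a and miR-144 (all 3 listed by their human names) summed to 143.1, 491 and 187 RPM in pellets 1, 2 and 3, against 11.9 to 20.9 RPM in the supernatants. The platelet and leukocyte markers miR-142 and miR-223 summed to 31.8, 241 and 39.2 RPM in pellets 1, 2 and 3, against 12.7 to 18.8 RPM in the supernatants, and miR-150 was not listed. Almost all of this was miR-142-5p, at 31.3, 241 and 39.2 RPM in pellets 1, 2 and 3 and 12.7 to 18.4 RPM in the supernatants. MiR-223 thus added next to nothing. Of the hepatocyte markers, all 4 were listed and summed to 49661 to 92899 RPM in the pellets, against 30992 to 40809 RPM in the supernatants. Almost all of this was miR-122-5p, at 49607 to 92838 RPM in the pellets and 30978 to 40793 RPM in the supernatants. The neuron markers miR-9 and miR-129 summed to 224, 0 and 81.9 RPM in pellets 1, 2 and 3, against 1.49 to 13.3 RPM in the supernatants, and miR-124 was not listed. The part of these markers in the values of the muscle miRNAs was not tested.

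MiR-206, which shares its seed with miR-1, did not pass between the fractions. It stood at 57.8, 16.0 and 29.5 RPM in pellets 1, 2 and 3, against 16.1, 22.9 and 21.2 RPM in supernatants 1, 2 and 3. Pellet 2, the highest pellet for miR-1-3p, was here the lowest of all 6 libraries, but by less than the value of 1 read (0.637 RPM). The fractions overlapped, whereas in the mouse mapping pellet 2 stood at 28.98 RPM, above every supernatant. In the human mapping miR-206 averaged 34.4 ± 21.3 RPM in pellets and 20.1 ± 3.50 RPM in supernatants (SD, n = 3 per fraction). The log2 fold change was 0.58 (95% interval -0.79 to 1.95, adjusted p = 0.399 by limma). The ratio of miR-1-3p to miR-206 within a library was 0.859, 9.29 and 1.22 in pellets 1, 2 and 3, against 1.60, 0.493 and 0.739 in supernatants 1, 2 and 3. Pellet 2 thus stood apart from the other 5 libraries, which lay between 0.493 and 1.60. In the mouse mapping the ratio was smaller in pellet 2, at 4.91, against at most 1.33 in the other 5 libraries. As a share of listed miRNA reads miR-206 took 0.0374% ± 0.0144 in pellets and 0.0366% ± 0.00779 in supernatants.

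MiR-133a and miR-133b, whose genes neighbour the miR-1 and miR-206 genes, were scarce in RPM. MiR-133a-3p stood at 7.16, 1.27 and 0 RPM in pellets 1, 2 and 3, against 1.32, 0.261 and 0.325 RPM in supernatants 1, 2 and 3. Pellet 1 alone was above 2 RPM, and this value rested on an estimated 47.7 reads, whereas no other library exceeded 7.12 reads. MiR-1-3p exceeded miR-133a-3p by 6.94 and 117 times in pellets 1 and 2, and by 19.5, 43.2 and 48.2 times in supernatants 1, 2 and 3. In pellet 2 and in supernatants 2 and 3 that ratio rests on 1 or 2 reads of miR-133a-3p. The log2 fold change between fractions was 0.75 (95% interval -1.10 to 2.61, adjusted p = 0.420 by limma).

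The other arm and the miR-133b paralog were too low for the test, which took miRNAs that reached 1 RPM in at least 3 libraries. MiR-133a-5p stood at 3.46 RPM in pellet 3, an estimated 3 reads, and at 0 in pellets 1 and 2, against 1.62 RPM in supernatant 3, an estimated 5 reads, 0.0310 RPM in supernatant 1 and 0 in supernatant 2. Its highest libraries, pellet 3 and supernatant 3, had the 3p arm at 0 and 0.325 RPM, and it was at 0 in pellet 1, where the 3p arm was highest. MiR-133b was at most 0.637 RPM, in pellet 2, and at most 0.162 RPM in the supernatants, so no library held more than an estimated 1 read. Neither was separated between the fractions at this depth.

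MiR-208b-3p, encoded within the slow myosin gene, varied more among the pellets than any other member above 0 in all 6 libraries. It stood at 31.3, 5.10 and 90.8 RPM in pellets 1, 2 and 3, against 21.4, 13.6 and 17.1 RPM in supernatants 1, 2 and 3. The pellets lay both above and below all supernatants, with a 17.8-fold range among the pellets and a 1.57-fold range among the supernatants. In the shallow pellet 3 the value rests on an estimated 78.8 reads, and in pellet 2 on 8 reads. It averaged 42.4 ± 43.9 RPM in pellets and 17.4 ± 3.87 RPM in supernatants (SD, n = 3 per fraction), with a log2 fold change of 0.54 (95% interval -1.61 to 2.68, adjusted p = 0.613 by limma). Without pellet 3 the fold change turned to -0.37, and without pellet 2 it was 1.59, and neither passed (adjusted p = 0.682 and 0.0698 by limma, in a range of 0.0698 to 0.961 over all alternatives).

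The pellet highest in miR-1-3p was the lowest in miR-208b-3p, and the pellet highest in miR-208b-3p was the lowest in miR-1-3p. Their ratio was 1.59, 29.2 and 0.395 in pellets 1, 2 and 3, against 1.21, 0.827 and 0.918 in supernatants 1, 2 and 3. The supernatants stayed close to equal levels of both, while pellet 2 was far above and pellet 3 below them.

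MiR-208a-3p, the partner from the alpha myosin gene, was lower than miR-208b-3p in every library. It stood at 0.793, 0 and 13.8 RPM in pellets 1, 2 and 3, against 1.51, 1.04 and 4.28 RPM in supernatants 1, 2 and 3. As for miR-208b-3p, pellet 3 was the highest library. Pellet 2 was listed at 0, where 3 reads are worth 1.91 RPM, more than in pellet 1 and supernatants 1 and 2. The lowest library was thus not resolved. In mouse hearts the beta myosin gene and miR-208b prevail before birth, and the alpha myosin gene with miR-208a after it. A link of this switch to the levels in FBS was not tested. MiR-208b-3p exceeded miR-208a-3p by 39.4 and 6.56 times in pellets 1 and 3, against 14.2, 13.1 and 3.98 times in supernatants 1, 2 and 3. These ratios rest on an estimated 4 to 13.2 reads of miR-208a-3p. The log2 fold change of miR-208a-3p between the fractions was -0.0087 (95% interval -2.36 to 2.34, adjusted p = 0.993 by limma).

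MiR-499a-5p, from the MYH7B gene, was found at 3.69, 6.48 and 0 RPM in pellets 1, 2 and 3, against 0.372, 1.04 and 2.81 RPM in supernatants 1, 2 and 3. Pellet 3, the highest library for both miR-208 members, listed it at 0, where 3 reads are worth 3.46 RPM. Pellet 2, the lowest for miR-208b-3p, was the highest for miR-499a-5p. It did not pass (log2 fold change 0.57, 95% interval -1.40 to 2.54, adjusted p = 0.560 by limma).

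**Figure D2:**
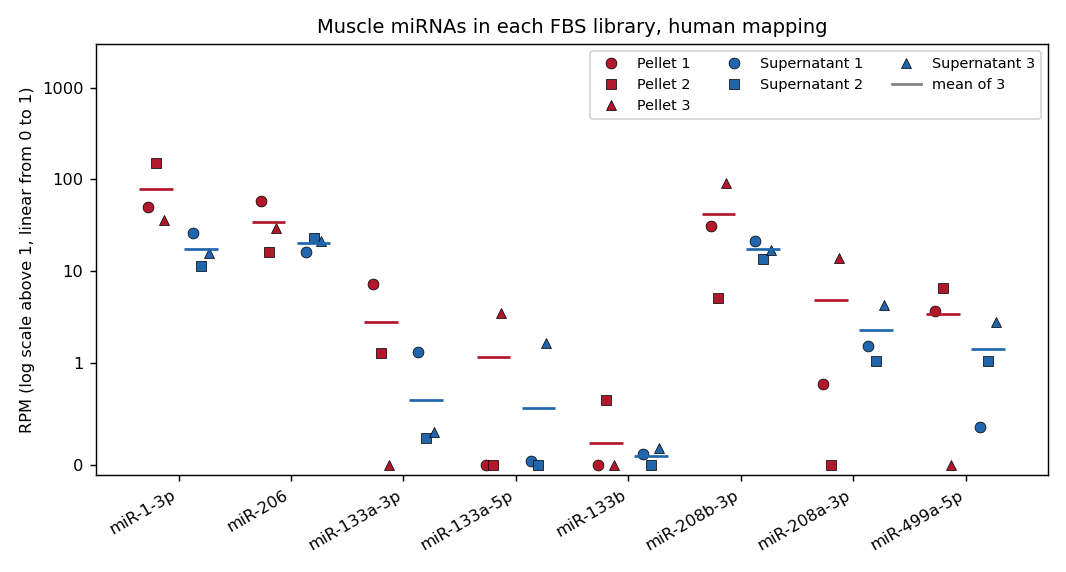
RPM of the 8 muscle miRNAs in the human mapping, on an axis that is logarithmic above 1 RPM and linear below it, with 3 pellets in red, 3 supernatants in blue, symbols for the library number and bars for the means. MiR-1-3p alone had every pellet above every supernatant, and pellet 2 was highest for miR-1-3p and miR-499a-5p and lowest for miR-208b-3p. For miR-206 pellet 2 was lowest by less than the value of 1 read (0.637 RPM). For miR-208a-3p it was listed at 0, where 3 reads are worth 1.91 RPM.

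By the mean of the pellets the order was miR-1-3p, miR-208b-3p, miR-206, miR-208a-3p, miR-499a-5p, miR-133a-3p, miR-133a-5p and miR-133b. Of the neighbours in this order, only miR-206 and miR-208a-3p differed by more than the SD of their difference (29.6 ± 23.8 RPM, the same order in 3 of 3 pellets). By the mean of the supernatants miR-206 came before miR-1-3p and miR-208b-3p, at 20.1, 17.6 and 17.4 RPM, and these were within their spread of each other. The step from miR-208b-3p to miR-208a-3p was 15.1 ± 4.14 RPM (same order in 3 of 3 supernatants), and that from miR-208a-3p to miR-499a-5p 0.872 ± 0.774 RPM (same order in 2 of 3 supernatants). The other neighbours were within their spread. Among all listed miRNAs of a library miR-1-3p ranked 76th, 26th and 44th in pellets 1, 2 and 3, against 20th, 40th and 38th in supernatants 1, 2 and 3. MiR-206 ranked 65th, 81st and 52nd in pellets 1, 2 and 3, against 32nd, 20th and 26th in the supernatants in the same order. MiR-208b-3p ranked 89th, 120th and 22nd in the pellets, against 25th, 33rd and 33rd in the supernatants. In rank, miR-206 was thus higher in every supernatant than in any pellet, although its RPM overlapped. The number of miRNAs above 0 in a library, which bears on ranks, ran from 205 to 391 in pellets and from 193 to 254 in supernatants.

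All 6 tested members had a log2 fold change below the median of all tested miRNAs, with a median of 0.58 against 2.05. MiR-1-3p lay above that median with a pseudocount of 10 RPM (1.49 against 1.01), without pellet 1 (2.08 against 1.72) and without supernatant 1 (2.19 against 1.97). Without the filter on low values the median was 0.57, and miR-1-3p, miR-133a-3p (0.75) and miR-206 (0.58) of 8 members lay above it. With the filter at 1 RPM the percentiles of the 6 ran from 3.92 for miR-208a-3p to 43.8 for miR-1-3p. With 1 of 6 members called, against 47.7% of all tested miRNAs, fewer members passed than that share of 6 would give, a difference that was not tested. A further 13 tested rows carry the number, on either arm, of miRNAs that regulate muscle differentiation in mouse or human cells. Of these 13, 11 were higher in the pellets, 0 lower and 2 did not pass by limma, with a median log2 fold change of 2.47. They count arms and paralogs singly, such as miR-181a-5p, miR-181a-2-3p and miR-181b-5p. With the filter at 10 RPM in 3 libraries 10 of 10 passed, against 61 of all 75 tested and 1 of 3 members. With median-of-ratios scaling 0 of the 13 passed (2 did so before adjustment), against 6 of all 153 tested miRNAs. Scaling to listed miRNA reads left 6 of the 13 (38 of all 153), and a pseudocount of 10 RPM left 7 (38 of all 153). Leaving out supernatant 1, 2 or 3 left 0, 0 and 3 of the 13 (0, 0 and 31 of all 153). Without the filter on low values 1 of 21 passed (11 of all 502). Among the 13, miR-181a-5p, expressed in differentiating myoblasts, stood at 296, 309 and 178 RPM in pellets 1, 2 and 3, against 92.2, 69.2 and 76.3 RPM in supernatants 1, 2 and 3 (log2 fold change 1.68, adjusted p = 0.0180). MiR-486-5p, abundant in both muscle and red blood cells, stood at 138, 440 and 176 RPM in the pellets, against 8.70, 13.9 and 19.0 RPM in supernatants (log2 fold change 3.96, adjusted p = 0.00913). The pellets lay above the supernatants in both. MiR-143-3p of smooth muscle was the only tested row of the smooth muscle list, at 317, 251 and 84.5 RPM in the pellets, against 36.8, 46.5 and 47.9 RPM in supernatants (log2 fold change 2.10, adjusted p = 0.0229). None of these 3 passed with median-of-ratios scaling, where the log2 fold changes were -0.36 for miR-181a-5p, 1.98 for miR-486-5p and 0.07 for miR-143-3p (adjusted p = 0.519, 0.0699 and 0.910 by limma). MiR-486-5p also lost its call without supernatant 1 or 2 (adjusted p = 0.0667 and 0.0695 by limma). MiR-143-3p lost it without supernatant 1, 2 or 3 (adjusted p = 0.0878, 0.0976 and 0.0722) and without the filter (0.109). MiR-181a-5p lost it without supernatant 1, 2 or 3 (adjusted p = 0.0810, 0.103 and 0.0628), without the filter (0.0534) and with scaling to listed miRNA reads (0.0547).

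**Figure D3:**
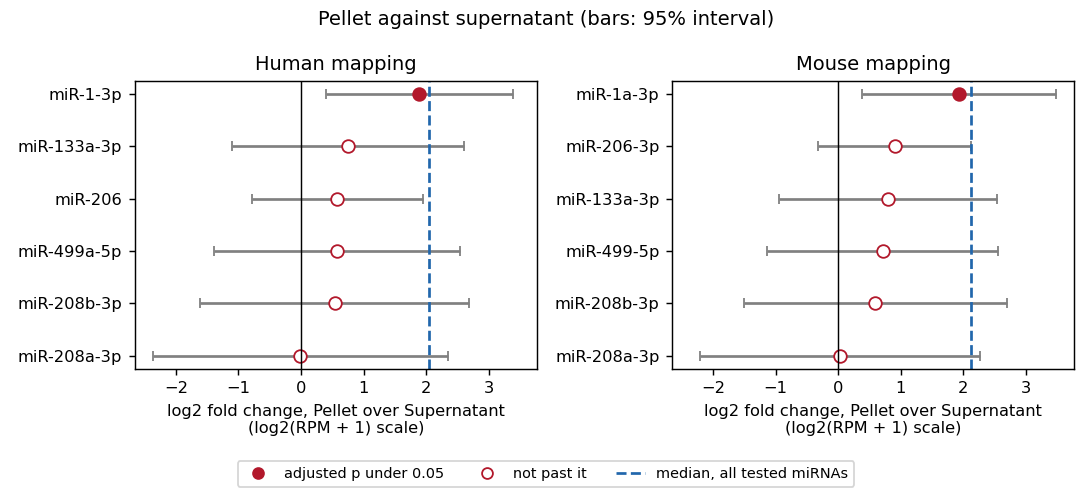
Log2 fold changes, pellet over supernatant, of the 6 tested muscle miRNAs in each mapping, from limma on log2(RPM + 1), with bars for the 95% interval, a filled point for an adjusted p under 0.05 and a dashed line for the median over all tested miRNAs. MiR-1-3p (1.89) and its mouse counterpart (1.93) are the only filled points, and every point lies left of the dashed line at 2.05 or 2.12.

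Profiles over the 6 libraries were set side by side by the root mean square (RMS) difference of log2(RPM + 1) after centring each miRNA on its mean, which leaves out the level. Nearest to miR-1-3p among 152 other miRNAs was miR-148a-3p (0.30), then miR-425-5p (0.33) and miR-1307-5p (0.34), where the median RMS difference was 1.03. These 3 likewise had pellet 2 as their highest library, miR-148a-3p at 949, 1723 and 462 RPM in pellets 1, 2 and 3, against 328, 240 and 259 RPM in supernatants 1, 2 and 3. Nearest to miR-206 were miR-493-3p (0.35), miR-122-5p (0.42) and miR-320d (0.47), with a median of 1.17. Nearest to miR-208b-3p were miR-98-5p (0.42), miR-3591-5p (0.48) and miR-130b-3p (0.63), with a median of 1.72, and all 3 had pellet 3 as their highest library. For miR-208a-3p they were miR-3591-5p (0.55), miR-208b-3p (0.72) and miR-125a-3p (0.88), with a median of 1.97. MiR-208b-3p was the only member among the nearest profiles of another member in the human mapping. MiR-133a-3p lay nearest to miR-494-3p (0.39), miR-320c (0.51) and miR-181d-5p (0.60), and miR-499a-5p to miR-151a-5p (0.58), miR-151b (0.59) and miR-541-5p (0.63), with medians of 1.18 and 1.26. The miRNAs of a library share its depth, and these distances are a description.

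All 8 members were also listed in the mouse mapping, and 4 of them had nearly the same number of reads there (0.976 to 1.03 times the human number). Summed over the 6 libraries miR-1-3p had an estimated 826 reads in the human mapping and mmu-miR-1a-3p 821 in the mouse mapping. MiR-208b-3p had 515 and 502.5 reads, miR-208a-3p 42.6 and 43.5, and miR-133a-3p 58.8 and 60.3 reads for the human and then the mouse mapping. MiR-499a-5p had 49.4 and 42.4 reads (0.859 times), miR-133a-5p 8.17 and 5.50 (0.673 times) and miR-133b 2.06 and 2.67 (1.30 times). MiR-206 was the exception among the abundant members, with 675 reads in the human and 809 reads in the mouse mapping, 1.20 times as many. Its mouse reads exceeded its human reads in all 6 libraries, by 1.19, 1.89 and 1.18 times in pellets 1, 2 and 3 and by 1.20, 1.11 and 1.11 times in supernatants 1, 2 and 3. Both mappings used the same reads, so these counts are not independent and were not tested.

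**Figure D4:**
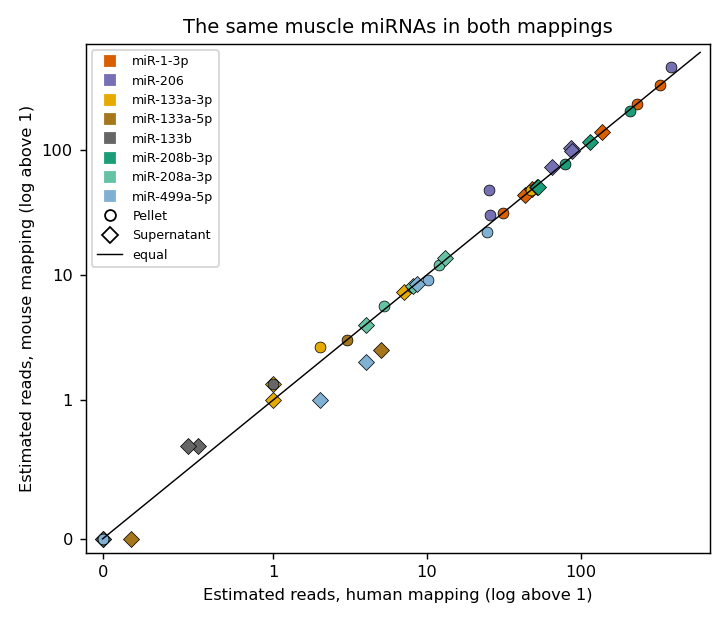
Estimated reads of each muscle miRNA in each library, human mapping on the x axis and mouse mapping on the y axis, both logarithmic above 1 read and linear below it, with circles for pellets, diamonds for supernatants and a line of equality. Points of miR-1-3p and miR-208b-3p lie close to the line, and those of miR-206 lie above it in all 6 libraries.

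In RPM of the mouse mapping mmu-miR-1a-3p stood at 44.6, 142.4 and 32.5 in pellets 1, 2 and 3, against 23.0, 9.995 and 14.0 in supernatants 1, 2 and 3. As in the human mapping all pellets were above all supernatants (log2 fold change 1.93, standard error 0.68, adjusted p = 0.0437 by limma), where 55.9% of the tested miRNAs were called higher in the pellets and 73.4% did not overlap. The call was lost without pellet 2 (adjusted p = 0.0886) or supernatant 1, 2 or 3 (adjusted p = 0.0942, 0.159 and 0.114), and with median-of-ratios scaling the sign turned (-0.15). Over all alternatives its adjusted p by limma ran from 0.0185 to 0.865. Mmu-miR-206-3p stood at 62.4, 28.98 and 31.7 RPM in pellets 1, 2 and 3, against 17.4, 22.5 and 21.1 RPM in supernatants 1, 2 and 3. Here the pellets no longer overlapped with the supernatants (exact permutation p = 0.10), while limma did not pass it (log2 fold change 0.90, 95% interval -0.32 to 2.13, adjusted p = 0.162). The other 4 tested members had log2 fold changes from 0.026 for mmu-miR-208a-3p to 0.79 for mmu-miR-133a-3p, with adjusted p from 0.354 to 0.980 by limma. Mmu-miR-208b-3p repeated the spread among the pellets, at 27.6, 4.88 and 80.3 RPM in pellets 1, 2 and 3, against 19.2, 11.6 and 14.7 RPM in supernatants 1, 2 and 3.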

How the data were processed

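RNA of 3 pellets and 3 supernatants of FBS was sequenced as small RNA libraries (single reads of 50 nt). The authors' deposited values are RPM per miRNA for each library, from reads mapped to hg19 with exceRpt V2.2.8 and to mm10. For mm10 the pipeline was not given in the sources used here. RPM are shares of mapped reads, so a gain of other RNAs lowers a miRNA. The deposited tables of RNA classes were not used here.

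Fractions were compared by limma 3.58.1 (R 4.3.3) on log2(RPM + 1), without covariates, with a variance trend, and Benjamini-Hochberg adjustment at 0.05 over all miRNAs that reached 1 RPM in at least 3 libraries. Exact permutation tests over 20 relabellings were two-sided (Python 3.11.15, scipy 1.17.1). Figures were drawn with matplotlib 3.10.9. The steps were tested on simulated data. For limma the simulated mean levels were raised above a few RPM, so members that low were not covered. Reads were estimated per library, with 1 read set to its lowest value that 6 or more miRNAs shared. Of the values above 0, 35.6% to 59.6% per library were whole reads within 0.02 in the human mapping, so no count model was fitted. The floor of 3 reads covers counting error only. Members and lists were chosen with earlier results of these data known. Named miRNAs are all members, the 3 nearest profiles of each tested member, and the 2 most abundant tested miRNAs of each muscle list. Mature sequences and genome positions were not analysed here. Alternatives were other pseudocounts, filters, scalings, no trend, a block for the replicate number, and each library left out in turn.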

Additional observations from a re-analysis of the deposited data

How the results depend on the processing

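Of the 6 members tested in each mapping, miR-1-3p (mmu-miR-1a-3p) alone passed by limma. The 1 call became 0 in both mappings with a pseudocount of 10 RPM, without the filter on low values, with scaling to listed miRNA reads and with median-of-ratios scaling, and ran from 0 to 1 without each library in turn. It was kept with a pseudocount of 0.1 RPM, a filter at 10 RPM and no trend. Over all tested miRNAs the count of 73 in the human mapping (80 in the mouse mapping) became 38 (34) with a pseudocount of 10 RPM, 11 (10) without the filter, 38 (9) with scaling to listed miRNA reads and 6 (8, 1 of them higher in the pellets) with median-of-ratios scaling, and ran from 0 to 97 (0 to 94) without each library. Without supernatant 1 or 2 it was 0 (67 and 61 at an unadjusted p under 0.05 in the human mapping, 65 and 60 in the mouse mapping). With median-of-ratios scaling the log2 fold change turned to -0.24 for miR-133a-3p, -0.086 for miR-1-3p, -1.37 for miR-206, -1.33 for miR-208b-3p and -0.69 for miR-499a-5p, and in the mouse mapping to -0.27 for miR-133a-3p, -0.15 for miR-1a-3p, -1.17 for miR-206-3p, -1.36 for miR-208b-3p, -0.97 for miR-208a-3p and -0.45 for miR-499-5p. With scaling to listed miRNA reads it turned to -0.032 for miR-206 and -0.061 for miR-208b-3p, and in the mouse mapping to -0.13 for miR-206-3p, -0.41 for miR-208b-3p and -0.52 for miR-208a-3p. MiR-208a-3p turned to 0.17 with a pseudocount of 10 RPM, and mmu-miR-208a-3p to -0.83 with 0.1 RPM. None of the turned values passed, and the cause was not tested.

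Without each library in turn the log2 fold change ran from 1.29 to 2.31 for miR-1-3p, -0.059 to 1.45 for miR-133a-3p, -1.17 to 0.78 for miR-208a-3p, -0.37 to 1.59 for miR-208b-3p and -0.023 to 1.43 for miR-499a-5p, and in the mouse mapping from -0.29 to 1.60 for miR-208b-3p and -1.09 to 0.79 for miR-208a-3p.

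With the replicate number as a block miR-1-3p kept its call in the human mapping (adjusted p = 0.0495), where 78 miRNAs passed, and mmu-miR-1a-3p lost it in the mouse mapping (adjusted p = 0.0666, 0 calls among the members), where 73 passed. Deviations from the fraction means correlated at -0.19, 0.27 and 0.26 for numbers 1, 2 and 3 in the human mapping, and pellets 1 and 2 correlated best with a supernatant of another number (0.27 with supernatant 3 and 0.28 with supernatant 1). The 3 batches of serum are not tied to the numbers in the sources used here, so pairing by number was not established. The depth of pellet 3 limits every member of a few RPM.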
